A study of Homo sapiens with 20 samples.

Results

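The oxidative phosphorylation genes code for the subunits of the 5 respiratory complexes of the mitochondrion and for cytochrome c. They were collected by symbol and gene type alone. Members were the protein-coding genes of the GENCODE annotation whose name starts with NDUFA, NDUFB, NDUFC, NDUFS, NDUFV, UQCR, ATP5, MT-ND, MT-CO, MT-ATP or MT-CY or with COX4 to COX8, together with SDHA, SDHB, SDHC, SDHD, CYC1 and CYCS. This rule takes 113 genes, of which 100 lie in the nuclear genome and have at least 1 transcript with a row in the files. The other 13 are the mRNAs of the mitochondrial genome, for which the files hold 0 rows, so they were not analysed here. Of the 100 nuclear members, 98 reached a total of at least 1 estimated count in both conditions and were tested, among 27697 genes (17351 mRNAs and 10346 lncRNAs). COX6A2 and COX7B2, the muscle and testis forms of cytochrome c oxidase subunits, did not reach it.

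The samples came from NGP, a human neuroblastoma cell line. Cells of 10 samples received nutlin-3, a small molecule that binds MDM2, as a racemic mixture at 8 µM, and cells of 10 samples received ethanol, the vehicle. Poly(A) RNA was sequenced from stranded libraries as read pairs of 75 bases, with library sums from 14455477 to 19532971 estimated counts. The study describes the samples of a condition as biological replicates, grown in culture flasks. The tests set the difference between the groups against the spread between these cultures of the same cell line. Variation between cell lines or tumours is not covered. The duration of the treatment is not given in the sources used here.

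In the mitochondrial inner membrane, complexes I and II pass electrons from NADH and succinate to ubiquinone, complex III passes them on to cytochrome c, and complex IV passes them to oxygen. The protons that complexes I, III and IV pump across the membrane drive complex V, the ATP synthase. Complexes I, III, IV and V are built from subunits of both genomes, whereas all subunits of complex II are nuclear. Neuroblastoma is a tumour of the sympathetic lineage, and all 9 adrenergic markers examined were present. In vehicle samples they ranged from 138.8 CPM (counts per 1000000 of the library) ± 8.86 (SD, n = 10) for DBH to 1674 CPM ± 116.6 (SD, n = 10) for CHGA. After nutlin 4 of them fell, 4 rose and 1 was not significantly changed, and their summed CPM went from 4359 to 5057 in vehicle samples to 5062 to 6489 in nutlin samples. Of the markers of other cells 7 were tested, and 6 of these had group means between 0.0248 and 2.84 CPM. The highest was COL1A1, with 8.91 CPM ± 1.35 (SD, n = 10) in vehicle samples and 35.2 CPM ± 3.50 (SD, n = 10) in nutlin samples. Of these 7 markers 4 rose, and their summed CPM went from 10.3 to 16.9 in vehicle samples to 37.3 to 48.6 in nutlin samples. The part of either marker list in the members' values was not tested.

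Although no mitochondrial mRNA has a row, the files list nuclear copies of mitochondrial genes. These are pseudogenes that arose when stretches of mitochondrial DNA were inserted into nuclear chromosomes, and they are not members. One stretch is shown to let the letters be compared. It is 75 bases long, the length of 1 read, and it comes from MT-CO1, the catalytic subunit of complex IV (build hg38, chrM:5986-6060, plus strand), and from its copy MTCO1P12 (chr1:631156-631230, plus strand). The capital letter marks the 1 base that differs.
MT-CO1: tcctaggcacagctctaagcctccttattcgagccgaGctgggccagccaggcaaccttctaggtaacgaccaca
MTCO1P12: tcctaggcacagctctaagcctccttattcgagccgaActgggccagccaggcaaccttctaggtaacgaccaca
Over 1542 aligned bases MT-CO1 and MTCO1P12 differed at 20 positions, an identity of 98.7%. Of the 31-base words of MT-CO1, the unit in which kallisto compares reads with transcripts, 62.2% were found in MTCO1P12. Reads made only of shared words cannot be assigned to the mitochondrial mRNA or to the nuclear copy.

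The nuclear members were lower after nutlin. Of the 98 tested, 77 fell, 12 rose and 9 were not significantly differentially expressed (SDE) in edgeR's quasi-likelihood test at a 5% false discovery rate (FDR). Over all genes tested, 26.5% fell and 32.3% rose. The median log2 fold change (LFC) of the members was -0.49, beside 0.19 over all genes tested. Most members are abundant, so the closer background is the 9443 mRNAs with a mean of at least 10 CPM, of which 59.3% fell and 26.0% rose, with a median LFC of -0.24. Of the 87 members at that level, 76 fell and 6 rose, with a median LFC of -0.52. Of the 11 members below it, 1 fell and 6 rose, and no share was computed for other genes at that low level. Where libraries were scaled to their totals without TMM, all medians moved up. They were -0.30 for the members, 0.37 for all genes and -0.05 for the abundant mRNAs, of which then 45.1% fell and 38.3% rose. A change of scaling shifts the LFC of all genes by nearly the same amount. The median of the members therefore stayed 0.25 below that of the abundant mRNAs, and this gives no separate support.

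These are shares of the RNA of whole cultures, in which fewer cells that hold a transcript and less of it per cell cannot be told apart. Adding the counts of 237 annotated pseudogene copies to their 53 parent members changed no call.

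The separation between the groups was often complete, as it was among the abundant mRNAs. In 44 of the 98 members every nutlin sample lay below every vehicle sample, and in 5 every nutlin sample lay above. Over all genes tested these shares were 16.6% and 12.2%. All 44 were among the 87 members with a mean of at least 10 CPM. The share to set beside 44 of 87 is that of the abundant mRNAs, of which 42.7% lay below, not far from it. In the other 49 members the groups overlapped.

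**Figure D1:**
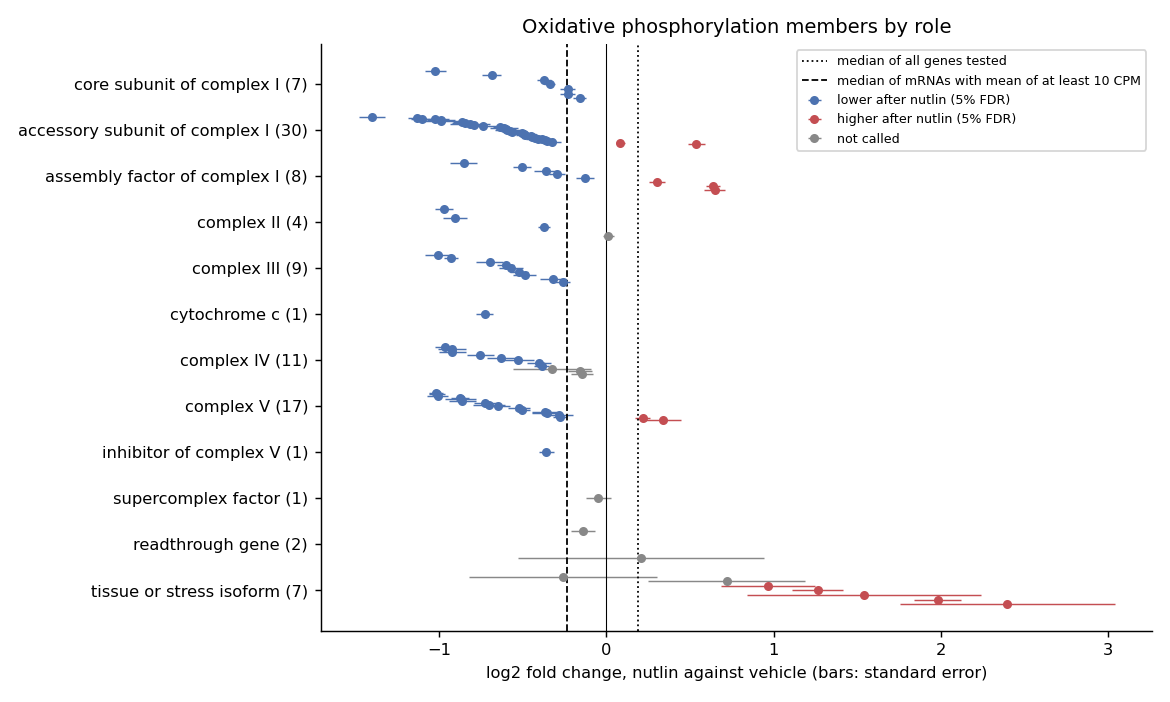
LFC of nutlin against vehicle for the 98 members tested, 1 point each with its standard error, by role (the number of members in brackets), with dashed and dotted lines at the medians of abundant mRNAs and of all genes tested. Points of the 5 complexes lie mostly left of the dashed line at -0.24, and the 7 tissue or stress isoforms lie mostly right of the dotted line at 0.19.

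Complex I, NADH dehydrogenase, has a core that binds the cofactors and a shell of accessory subunits. All 7 nuclear core subunits fell, with a median LFC of -0.34. Among the abundant mRNAs 59.3% fell, with a median LFC of -0.24. Of the core subunits NDUFV2, which holds an iron-sulfur cluster, fell most. Its vehicle samples lay between 78.7 and 117.4 CPM with a median of 92.4 CPM, and its nutlin samples between 39.9 and 54.4 CPM with a median of 45.8 CPM. The groups of NDUFV2 did not overlap (LFC -1.02, SE 0.06, adjusted p = 5.8e-15). The other large fall was in NDUFS3, a core subunit of the matrix arm, from a median of 96.9 CPM to 60.9 CPM (LFC -0.69, SE 0.06, adjusted p = 9.7e-12).

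Of the 30 accessory subunits of complex I, 28 fell (93.3%) and 2 rose (6.67%), with a median LFC of -0.58. The shares among the abundant mRNAs were 59.3% and 26.0%. NDUFB6 had the largest fall of all members. Vehicle samples held 68.5 to 103.8 CPM of NDUFB6 with a median of 82.1 CPM. Nutlin samples held 27.3 to 45.3 CPM with a median of 30.0 CPM, so that all 10 lay below the lowest vehicle sample (LFC -1.40, SE 0.08, adjusted p = 8.6e-16). NDUFC2 came next, with 120.2 to 155.8 CPM in vehicle samples and 54.1 to 77.8 CPM in nutlin samples (LFC -1.13, SE 0.05, adjusted p = 2.6e-17). The fall of NDUFAB1, the mitochondrial acyl carrier protein, was of similar size (LFC -1.10, SE 0.07, adjusted p = 2.3e-14).

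The 2 accessory subunits that rose did so to different extents. NDUFV3 held 32.3 to 44.8 CPM in vehicle samples and 52.8 to 57.3 CPM in nutlin samples, with no overlap (LFC 0.54, SE 0.05, adjusted p = 6.3e-11). NDUFA10 held 101.6 to 110.6 CPM in vehicle samples and 103.7 to 120.4 CPM in nutlin samples. The groups of NDUFA10 overlapped, and its rise was small (LFC 0.08, SE 0.03, adjusted p = 0.015). The call was lost under 4 alternatives, and the LFC of NDUFA10 was 0.016 (adjusted p = 0.74) with protein-coding transcripts only.

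The 8 genes named NDUFAF are not subunits but assembly factors of complex I, which the rule takes by their name. They were divided, with 5 falls (62.5%) and 3 rises (37.5%). With 59.3% and 26.0% among the abundant mRNAs, the share of falls is near the background. NDUFAF2 fell from a median of 44.3 CPM to 24.5 CPM (LFC -0.85, SE 0.08, adjusted p = 1.5e-10). NDUFAF3 fell less, from a median of 38.8 CPM to 26.9 CPM (LFC -0.50, SE 0.05, adjusted p = 1.1e-09). NDUFAF8, a partner of NDUFAF5, rose from 48.5 to 74.4 CPM in vehicle samples to 85.8 to 105.8 CPM in nutlin samples, without overlap (LFC 0.65, SE 0.06, adjusted p = 1.8e-10). NDUFAF6 also rose without overlap, from a median of 39.4 CPM to 61.9 CPM (LFC 0.64, SE 0.04, adjusted p = 3.4e-14). The third rise was that of NDUFAF7, a mitochondrial methyltransferase, with an LFC of 0.30 (SE 0.05, adjusted p = 1.6e-06). With protein-coding transcripts only, NDUFAF7 fell instead (LFC -0.33, adjusted p = 0.00041). The summed level of the 8 assembly factors was 334.8 CPM ± 23.6 (SD, n = 10) in vehicle samples and 353.7 CPM ± 16.7 (SD, n = 10) in nutlin samples, and the groups overlapped.

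Complex II, succinate dehydrogenase, has 4 subunits, and 3 of them fell, beside 59.3% of the abundant mRNAs. SDHB, the iron-sulfur subunit, held 117.7 to 164.0 CPM in vehicle samples with a median of 129.8 CPM. Its nutlin samples held 59.2 to 76.1 CPM with a median of 66.8 CPM (LFC -0.97, SE 0.05, adjusted p = 5.1e-16). SDHD, a membrane anchor, fell from a median of 17.9 CPM to 9.54 CPM (LFC -0.90, SE 0.07, adjusted p = 2.4e-12). SDHC, the other anchor, fell by a smaller LFC of -0.37 in counts (SE 0.04, adjusted p = 2.8e-10), though not per length, as given below. In none of these 3 did the groups overlap.

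SDHA, the flavoprotein that oxidizes succinate, was the subunit of complex II that was not SDE. It held 109.7 to 131.3 CPM in vehicle samples and 113.3 to 121.8 CPM in nutlin samples, with full overlap (LFC 0.01, SE 0.03, adjusted p = 0.79). It was called higher under 2 alternatives. The LFC of SDHA was 0.20 (adjusted p = 5.2e-07) when counts were scaled by library totals alone and 0.09 (adjusted p = 0.014) with the filterByExpr filter. The mRNA balance within the complex therefore differed between the groups on a per-length scale too. In TPM, which scales counts by length and library size, the ratio of SDHB to SDHA was 2.54 ± 0.197 (SD, n = 10) in vehicle samples and 1.25 ± 0.0960 (SD, n = 10) in nutlin samples. Its vehicle samples ranged from 2.32 to 2.95 and its nutlin samples from 1.13 to 1.44. The mean ratio of SDHC to SDHA was 2.30 in vehicle and 1.19 in nutlin samples, and that of SDHD to SDHA 0.328 and 0.172. Neither overlapped between the groups. Per length SDHC fell more than in counts, from a mean of 135.7 TPM in vehicle samples to 71.5 TPM in nutlin samples. These ratios and that of ATP5F1B to ATP5F1A given below were chosen after the values were seen, and they were not tested.

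**Figure D2:**
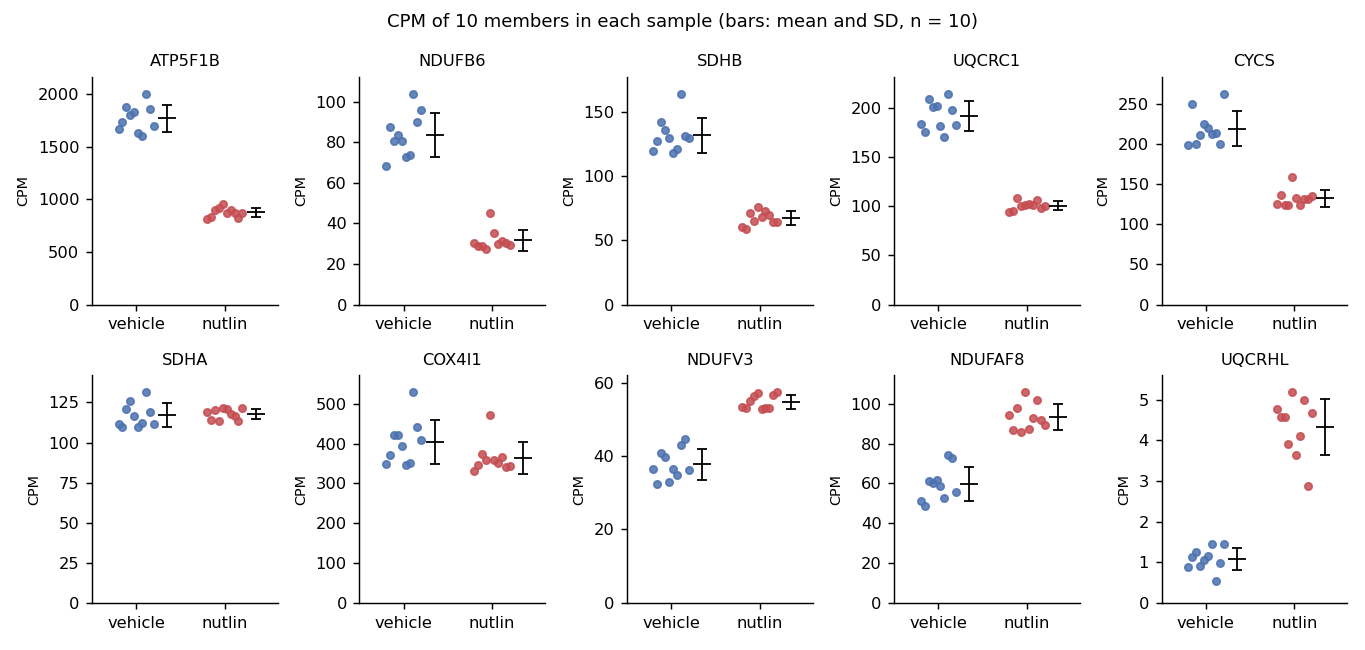
CPM of 10 members in every sample (points), with the mean and SD of each group of 10 beside them, on axes that start at 0. ATP5F1B, NDUFB6, SDHB, UQCRC1 and CYCS fell without overlap, SDHA and COX4I1 overlapped, and NDUFV3, NDUFAF8 and UQCRHL rose without overlap.

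All 9 subunits of complex III, the cytochrome bc1 complex, fell, with a median LFC of -0.57. Among the abundant mRNAs 59.3% fell. UQCR10, a small subunit, held 86.1 to 141.5 CPM in vehicle samples and 43.5 to 64.9 CPM in nutlin samples (LFC -1.01, SE 0.08, adjusted p = 1.2e-12). UQCRC1, a core protein, held 170.2 to 214.5 CPM in vehicle samples and 93.8 to 108.5 CPM in nutlin samples (LFC -0.93, SE 0.04, adjusted p = 2.3e-18). Its core partner UQCRC2 had the smallest fall of the complex, with an LFC of -0.26 and overlapping groups. The 3 catalytic subunits, CYC1, UQCRFS1 and the mitochondrial cytochrome b, could be followed for the first 2 only. CYC1, cytochrome c1, had an LFC of -0.52 and UQCRFS1, the Rieske protein, one of -0.60. CYCS, the soluble cytochrome c, fell from 198.6 to 262.7 CPM to 124.4 to 159.7 CPM, without overlap (LFC -0.73, SE 0.05, adjusted p = 1.7e-13).

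Complex IV, cytochrome c oxidase, had the most members without a call. Of its 11 nuclear subunits 8 fell (72.7%), with a median LFC of -0.53 over the 11. This share is not far above the 59.3% of the abundant mRNAs. COX8A, a small membrane subunit, held 235.2 to 337.4 CPM in vehicle samples and 122.8 to 164.8 CPM in nutlin samples (LFC -0.96, SE 0.06, adjusted p = 9.9e-15). COX7B fell from a median of 89.8 CPM to 44.9 CPM (LFC -0.92, SE 0.08, adjusted p = 5.6e-11), although its canonical transcript has no row and its level is therefore partial. The subunits not SDE were COX4I1, COX7C and COX6B1. COX4I1, a regulatory subunit that binds ATP, held 347.1 to 528.8 CPM in vehicle samples and 330.2 to 472.4 CPM in nutlin samples (LFC -0.15, SE 0.07, adjusted p = 0.055). COX7C had an LFC of -0.16 (SE 0.07, adjusted p = 0.059). Without vehicle replicate 10 and nutlin replicate 6, the highest samples of their groups, both were called lower (LFC -0.12, adjusted p = 0.018 for COX4I1 and LFC -0.14, adjusted p = 0.026 for COX7C). COX6B1 held at most 2.25 CPM in any sample, and its canonical transcript has no row. COX7A2L, which takes part in joining complexes III and IV, was not SDE (LFC -0.05, SE 0.08, adjusted p = 0.61).

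Of the 17 members of complex V, 15 fell (88.2%) and 2 rose (11.8%), with a median LFC of -0.65. The shares among the abundant mRNAs were 59.3% and 26.0%. ATP5F1B, the catalytic beta subunit, was the most abundant member by count. Its vehicle samples lay between 1606 and 2001 CPM with a median of 1765 CPM. Its nutlin samples lay between 810.8 and 956.5 CPM with a median of 871.3 CPM, a 2.02-fold fall without overlap (LFC -1.02, SE 0.04, adjusted p = 2.5e-19). ATP5F1C, the gamma subunit of the rotor, fell from 190.9 to 264.8 CPM to 99.5 to 121.9 CPM (LFC -1.01, SE 0.05, adjusted p = 1.7e-17). ATP5F1A, the alpha subunit that alternates with beta in the catalytic head, fell less (LFC -0.28, SE 0.04, adjusted p = 4.0e-07). The TPM ratio of ATP5F1B to ATP5F1A was 3.03 ± 0.0662 (SD, n = 10) in vehicle samples and 1.81 ± 0.0493 (SD, n = 10) in nutlin samples.

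The 2 members of complex V that rose were ATP5F1D and ATP5MC2. ATP5F1D, the delta subunit of the central stalk, held 93.3 to 130.6 CPM in vehicle samples and 125.1 to 148.0 CPM in nutlin samples, with overlap (LFC 0.22, SE 0.05, adjusted p = 0.00019). ATP5MC2, 1 of 3 genes for the c subunit of the membrane ring, rose from a median of 5.70 CPM to 6.57 CPM (LFC 0.34, SE 0.11, adjusted p = 0.0076), and it was not called with an offset for effective length. ATP5MC1 and ATP5MC3, the other 2 genes for that protein, fell by LFC of -1.01 and -0.87. ATP5IF1, which inhibits ATP hydrolysis by complex V, fell from 147.2 to 199.2 CPM to 117.7 to 142.3 CPM (LFC -0.36, SE 0.05, adjusted p = 5.6e-08).

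The tissue or stress isoforms were low, and none fell. Of the 9, 7 were tested, 5 rose and 2 were not SDE. Over all genes tested 26.5% fell and 32.3% rose. No share was computed for genes as low as these, so the counts are not read as a trait of the isoforms. UQCRHL, a copy of UQCRH that is itself annotated as protein-coding, held 0.550 to 1.46 CPM in vehicle samples and 2.89 to 5.18 CPM in nutlin samples (LFC 1.98, SE 0.14, adjusted p = 1.7e-13). Of its 31-base words 11.7% also occur in UQCRH, which fell (LFC -0.57), and its canonical transcript has no row, so its level is uncertain. NDUFA4L2, a form of NDUFA4 known for its rise in hypoxia, held 0.673 to 1.79 CPM in vehicle samples and 2.46 to 4.02 CPM in nutlin samples (LFC 1.26, SE 0.15, adjusted p = 1.8e-08). NDUFA4 itself, now counted with complex IV, fell (LFC -0.92, SE 0.08, adjusted p = 2.4e-11). COX6B2, COX8C and ATP5MGL also rose, each with a mean below 0.6 CPM in both groups. COX8C and ATP5MGL rested on fewer than 8 estimated counts over the 10 vehicle samples, and their fitted LFC depends on the prior count. COX4I2 and COX7A1, the lung and heart forms of their subunits, were not SDE at means below 0.3 CPM. The readthrough genes ATP5MF-PTCD1 and NDUFC2-KCTD14 were not SDE either, with LFC of -0.14 (adjusted p = 0.092) and 0.21 (adjusted p = 0.83). Both share exons with the genes they join, so their counts are uncertain.

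Per length, the members differed widely in level. The highest mean TPM in vehicle samples were those of ATP5F1B (1160), UQCRH (1127), NDUFS5 (1086) and ATP5MF (1019), and these became 571.4, 747.9, 755.1 and 562.4 TPM in nutlin samples. Summed over the members, the level was 25373 TPM ± 1813 (SD, n = 10) in vehicle samples and 17073 TPM ± 1015 (SD, n = 10) in nutlin samples. In CPM, the sums of vehicle samples ran from 13179 to 18424 with a median of 15020, and those of nutlin samples from 9582 to 12613 with a median of 10146, so the groups did not overlap. By complex, the summed CPM was lower by 37.6% in complex V, 32.1% in complex III, 29.4% in complex IV and 25.6% in complex II. A large part of the sum of complex V was ATP5F1B alone. Its means were 1770 of 5120 CPM in vehicle samples and 875.2 of 3195 CPM in nutlin samples. The order of the complexes is therefore not read as a trait of complex V. In complex I it was lower by 22.4% in the core and by 31.1% in the accessory subunits. The sums of complexes III and IV overlapped between the groups, and those of the others did not.

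The highest sums within each group were those of vehicle replicate 10 and nutlin replicate 6. In these, the median member lay 0.29 and 0.26 above its group mean on the log2 scale, and other mRNAs under 700 bases of effective length lay 0.31 and 0.27 above it. Without these 2 samples 78 members fell and 11 rose, with a median LFC of -0.47.

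Members are short mRNAs, and the LFC of other abundant mRNAs also varied with length. Other mRNAs of 500 to 1000 bases had a median LFC of -0.40, those of 1000 to 2000 bases -0.30 and those of 4000 bases or more -0.06. In the first of these bins the 40 members had a median of -0.58, and 36 of them fell, beside 67.4% of the 902 other mRNAs. Below 500 bases the medians were -0.55 for 28 members and -0.24 for 138 other mRNAs. With an offset for the trend with length, 75 members fell and 12 rose, with a median LFC of -0.38. The part of length in the falls was not tested further.

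**Figure D3:**
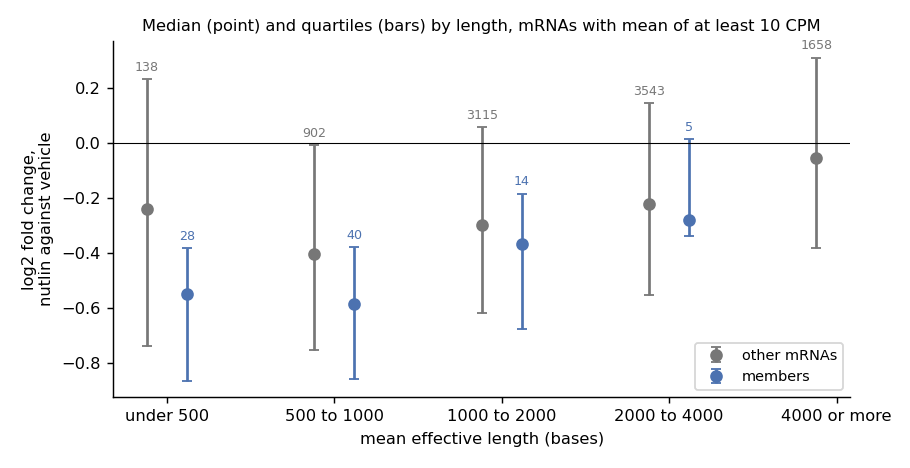
Median LFC (points) and quartiles (bars) of members and of other mRNAs with a mean of at least 10 CPM, in bins of mean effective length in bases, with the number of genes above each bar. The members lie lower than the other mRNAs in each of the 4 bins that hold members, by the most under 500 bases (-0.55 against -0.24).

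Within some members, transcripts moved in opposite directions. These members were chosen after the values were seen, and no test was run on transcripts. SDHC-201, its main transcript in vehicle samples, went from 42.5 to 56.7 CPM to 22.6 to 29.8 CPM, while SDHC-202 went from 34.9 to 44.1 CPM to 46.5 to 55.6 CPM. The share of SDHC counts on SDHC-202 was 31.3% in vehicle samples and 54.5% in nutlin samples, without overlap, so the modest LFC of the gene joined a fall of one protein-coding transcript with a rise of another.

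In NDUFAF6, the coding transcript NDUFAF6-203 and NDUFAF6-204, annotated for nonsense-mediated decay, went from means of 4.59 and 5.78 CPM to 0.674 and 0.0416 CPM. NDUFAF6-202, which is coding, and NDUFAF6-220, which has no defined coding sequence, went from means of 3.94 and 1.10 CPM to 9.66 and 11.7 CPM. With protein-coding transcripts alone, NDUFAF6 still rose (LFC 0.39, SE 0.08, adjusted p = 5.3e-05). NDUFAF7 then fell (LFC -0.33, SE 0.08, adjusted p = 0.00041), against a rise when all its transcripts were counted. Its transcript NDUFAF7-201 went from a median of 19.2 CPM to 12.7 CPM with overlapping groups, while the retained-intron transcript NDUFAF7-212 went from 8.06 to 14.6 CPM without overlap.

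**Figure D4:**
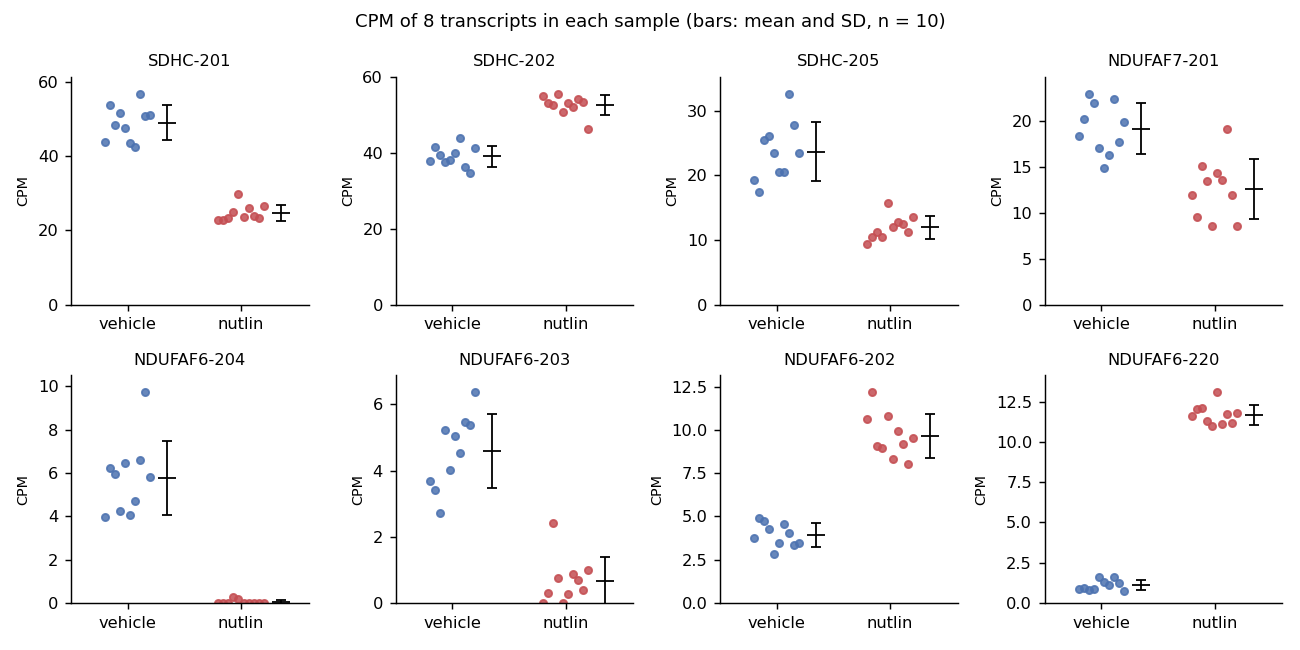
CPM of 8 transcripts of SDHC, NDUFAF6 and NDUFAF7 in every sample (points), with the mean and SD of each group of 10, on axes that start at 0. SDHC-201, SDHC-205, NDUFAF6-203 and NDUFAF6-204 were lower after nutlin, and SDHC-202, NDUFAF6-202 and NDUFAF6-220 were higher, all without overlap.

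Over all members, transcripts annotated as protein_coding held 88.0% ± 0.316 (SD, n = 10) of the counts in vehicle samples and 85.8% ± 0.306 (SD, n = 10) in nutlin samples, without overlap. Retained-intron transcripts held 3.58% ± 0.287 (SD, n = 10) and 4.62% ± 0.281 (SD, n = 10), with overlap. These shares were not computed for other genes, so the shift is not read as a trait of the members.

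The copies of mitochondrial genes were read beside the nuclear members to set the 2 genomes side by side, as far as the files allow. They were added to the fit after the data had been seen. Of 120 copies tested, 37 fell and 6 rose, and all 20 with a mean of at least 100 CPM fell. In the fit that includes them, 26.5% of all genes fell. The closer background for abundant copies is the mRNAs with a mean of at least 10 CPM, of which 59.3% fell. No share was computed for other genes at 100 CPM or more. For each of the 13 mitochondrial mRNAs, the copy with the most counts was taken, and these 13 held 96.0% of the CPM of all copies. All 13 fell, with LFC from -1.18 to -0.39 and a median of -0.60. In 12 of them every nutlin sample lay below every vehicle sample, beside 42.7% of the abundant mRNAs. The exception was MTATP8P1. All 13 lie close together, either within chr1:629062-634922 or within chr5:134923303-134928527, so they are not 13 separate observations.

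By complex, the copies of complex I genes varied most. MTND6P4, a copy of the gene MT-ND6, held 421.6 to 571.6 CPM in vehicle samples and 197.1 to 278.7 CPM in nutlin samples (LFC -1.18, SE 0.06, adjusted p = 7.7e-17). MTND5P11 (LFC -0.995) and MTND3P25 (LFC -0.91) followed, then MTND1P23 (LFC -0.71). MTND4P12 (LFC -0.47), MTND2P28 (LFC -0.44) and MTND4LP30 (LFC -0.39) changed least among them. The copy of cytochrome b, MTCYBP18, had an LFC of -0.40. For complex IV, MTCO1P12 held 10287 to 12673 CPM in vehicle samples and 7963 to 9799 CPM in nutlin samples (LFC -0.43, SE 0.04, adjusted p = 3.2e-10). MTCO2P12 had an LFC of -0.54 and MTCO3P12 one of -0.65. For complex V, MTATP6P1 had an LFC of -0.62 and MTATP8P1 one of -0.60. The words shared with the mitochondrial gene ranged from 3.48% for MT-ND3 to 62.2% for MT-CO1. For each copy, reads of the mitochondrial mRNA and of the nuclear copy cannot be told apart in these values.

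Summed in each sample, the copies lay between 38816 and 48052 CPM in vehicle samples and between 27569 and 34047 CPM in nutlin samples, without overlap. In CPM the sum was lower by 31.2% for the copies and by 31.3% for the nuclear members. In TPM it was lower by 34.9% and by 32.7%. The ratio of the sums in CPM was 2.96 ± 0.352 (SD, n = 10) in vehicle samples and 2.95 ± 0.223 (SD, n = 10) in nutlin samples. It was lowest in the 2 samples with the highest member sums, 2.26 in vehicle replicate 10 and 2.42 in nutlin replicate 6.

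**Figure D5:**
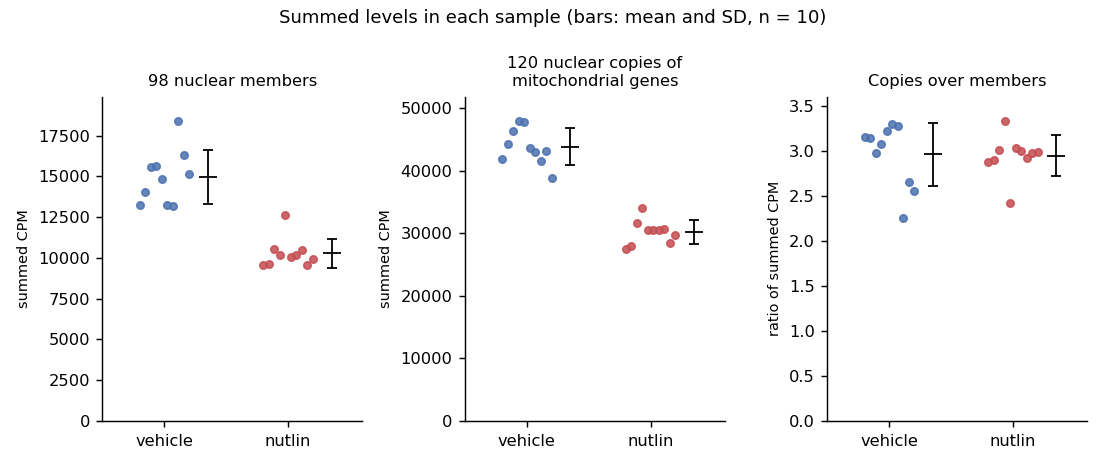
Summed CPM of the 98 nuclear members and of the 120 nuclear copies of mitochondrial genes in every sample, and the ratio of these sums, with the mean and SD of each group of 10, on axes that start at 0. Neither sum overlaps between the groups, nutlin being lower, and the ratios overlap around means of 2.96 and 2.95.

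Genes that assemble the complexes or serve the mitochondrial genome were examined as lists of the same pathway. Of 49 other assembly factors 35 fell (71.4%), 3 rose (6.12%) and 11 were not SDE, with a median LFC of -0.30, beside 59.3% and 26.0% of the abundant mRNAs and their median of -0.24. CMC2, which takes part in the assembly of complex IV, went from 51.7 CPM ± 4.68 (SD, n = 10) to 18.2 CPM ± 1.19 (SD, n = 10), a fall with LFC of -1.50 (adjusted p = 4.7e-21). COX16, which acts on the copper site of complex IV, fell with an LFC of -1.03. TIMMDC1, an assembly factor of complex I, and SDHAF4, one of complex II, rose with LFC of 0.37 and 0.34.

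Of 27 genes tested for mitochondrial transcription and RNA handling, 22 fell (81.5%), 2 rose (7.41%) and 3 were not SDE. Their median LFC was -0.25, near the -0.24 of the abundant mRNAs. SLIRP, which keeps mitochondrial mRNAs stable together with LRPPRC, went from 115.8 CPM ± 21.3 (SD, n = 10) to 54.8 CPM ± 8.73 (SD, n = 10), with an LFC of -1.08 (adjusted p = 1.0e-11). MTERF3, a repressor of mitochondrial transcription, fell with an LFC of -0.90. POLRMT, the mitochondrial RNA polymerase, rose with an LFC of 0.16 (adjusted p = 0.00087), and MTERF1 with an LFC of 0.13 (adjusted p = 0.049).

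Of 18 genes for replication and upkeep of mitochondrial DNA, 9 fell (50%), 6 rose (33.3%) and 3 were not SDE, beside 59.3% and 26.0% of the abundant mRNAs. RRM2B, the ribonucleotide reductase subunit of resting cells, had the largest change of these lists. It went from 6.98 CPM ± 1.30 (SD, n = 10) to 100.7 CPM ± 7.74 (SD, n = 10), an LFC of 3.85 (SE 0.07, adjusted p = 5.4e-27). TK2, mitochondrial thymidine kinase, rose with an LFC of 0.38. DNA2, a nuclease and helicase of nucleus and mitochondrion, fell from 70.5 CPM ± 6.31 (SD, n = 10) to 14.8 CPM ± 2.17 (SD, n = 10), an LFC of -2.25. SSBP1, which coats single-stranded mitochondrial DNA, fell with an LFC of -0.79.

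Of 17 nuclear regulators of mitochondrial genes, 10 fell (58.8%), 4 rose (23.5%) and 3 were not SDE. These shares are near the 59.3% and 26.0% of the abundant mRNAs. NRF1, nuclear respiratory factor 1, which binds promoters of many members, went from 25.1 CPM ± 1.32 (SD, n = 10) to 14.2 CPM ± 1.21 (SD, n = 10), with an LFC of -0.82 (SE 0.05, adjusted p = 9.5e-15). ESRRG, an orphan nuclear receptor, fell with an LFC of -1.06. Its relative ESRRA rose from 25.3 CPM ± 1.55 (SD, n = 10) to 45.4 CPM ± 1.69 (SD, n = 10), with an LFC of 0.84 (SE 0.04, adjusted p = 6.3e-18). PPARGC1A, a coactivator that works with both, rose from 13.6 CPM ± 1.48 (SD, n = 10) to 19.1 CPM ± 1.89 (SD, n = 10), with an LFC of 0.48. GABPA, the DNA-binding part of the other nuclear respiratory factor, was not SDE (LFC 0.0025, adjusted p = 0.99).

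Promoters of the members were searched for the core words of 3 regulators. RefSeq promoters of 300 bases (GRCh38.p14, 250 before and 50 after the gene start) matched 79 of the members, with 97 promoters. The word GCGCATGC, on either strand, was present in 18.6% of these and in 3.05% of all 35116 promoters. The 17 members that hold this NRF1 word comprised 16 that fell and 1 that rose, ATP5MC2, with a median LFC of -0.63. These values are near those of the standard subunits and cytochrome c, of which 71 of 79 fell (89.9%), with a median LFC of -0.57. That set is not the set matched to promoters, although both hold 79 genes. NDUFAF4 and NDUFAF5, which hold the word, lie outside it. The share over the matched members was not computed. The ETS word CCGGAAG was present in 25.8% of member promoters and 10.3% of all, and 20 of its 23 members fell and 1 rose. The YY1 word AAGATGGC was present in 15.5% and 2.89%, and 12 of its 13 members fell and 1 rose. The 3 words are different but can share letters at their ends where they adjoin. A match describes letters only. Stretches of 100 bases around the NRF1 word, written 5′ to 3′ on the strand of the gene with the word in capitals, are shown for 3 members that had among the largest falls, ATP5F1C (chr10:7788109-7788208, plus strand), SDHB (chr1:17054179-17054278, minus strand) and SDHD (chr11:112086717-112086816, plus strand).
ATP5F1C: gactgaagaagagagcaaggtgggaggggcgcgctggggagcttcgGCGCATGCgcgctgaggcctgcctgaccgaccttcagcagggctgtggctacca
SDHB: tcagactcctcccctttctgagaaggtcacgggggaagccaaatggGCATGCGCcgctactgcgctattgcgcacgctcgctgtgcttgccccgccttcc
SDHD: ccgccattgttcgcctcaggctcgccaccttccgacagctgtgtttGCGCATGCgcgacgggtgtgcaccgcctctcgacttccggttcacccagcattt
In ATP5F1C and SDHD the word reads GCGCATGC on the strand of the gene, and the 2 letters after it complete the word on the opposite strand too. In SDHB it reads GCATGCGC, its reverse complement. SDHD also holds the ETS word in this stretch, in lower case as cttccgg. The vehicle and nutlin levels of the 3 genes are those given above for complexes V and II.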

How the data were processed

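RNA of 20 NGP samples (10 vehicle, 10 nutlin) was measured. The authors quantified reads with kallisto 0.42.4 on GRCh38 transcripts, per the labels, and deposited 3 values for 198968 transcripts. The deposited estimated counts carry no normalization. The deposited TPM values were scaled by kallisto with effective length, given in bases, and library size. Transcripts were assigned to GENCODE genes by identifier (96.05% matched), and estimated counts were summed per gene and rounded. The rule, the gene lists and the tests were chosen with earlier results of these data known. Groups were taken from sample titles.

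Genes whose total reached 1 count in both conditions entered edgeR 4.0.16 in R 4.3.3 (quasi-likelihood F-test, TMM, condition only, Benjamini-Hochberg over all mRNAs and lncRNAs, 5% FDR). LFC is log2 of nutlin over vehicle, CPM uses TMM-adjusted totals. DESeq2 1.42.0 and limma 3.58.1 served as alternatives. In each list the 2 SDE members with the largest LFC in each direction at a mean of at least 1 CPM were named, with all isoforms, readthrough genes, cytochrome c, COX7A2L and ATP5IF1. Other names were chosen after values were seen. Tested libraries held 13339312 to 18001989 counts. Scripts were tested on simulated data. Mitochondrial mRNAs were not analysed here, and a scaling on nuclear genes alone was not run because it equals the one used. Results that need an item withheld from this text are not reported here.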

Additional observations from a re-analysis of the deposited data

Results flagged for a closer look

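Of 102 groups of 10 samples examined for 1 sample far from the others (the named members, the copies and the 2 sums, in each condition), 13 had such a sample by Dixon's criterion of 0.466 for the gap over the range. Chance alone marks about 1 in 20 of independent groups. These groups share the same samples, so no excess is read from the count. Only 2 samples were involved, and each was the highest of its group.

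Nutlin replicate 6 stood apart in COX4I1 (472.4 CPM, next highest 372.9 CPM), COX7A2L (291.3 CPM, next 200.2 CPM), COX7B (71.0 CPM, next 51.7 CPM), COX7C (315.0 CPM, next 250.4 CPM), CYCS (159.7 CPM, next 137.1 CPM), NDUFB6 (45.3 CPM, next 35.4 CPM), NDUFC2 (77.8 CPM, next 64.1 CPM), NDUFS3 (73.9 CPM, next 65.7 CPM) and the summed CPM of the nuclear members (12613, next 10530). Vehicle replicate 10 stood apart in COX4I1 (528.8 CPM, next 442.3 CPM), NDUFS3 (129.6 CPM, next 106.8 CPM), SDHB (164.0 CPM, next 142.2 CPM) and UQCR10 (141.5 CPM, next 115.7 CPM). In the summed CPM of the copies of mitochondrial genes neither sample stood apart, and vehicle replicate 10, at 41595 CPM, lay below the median of its group, 43464 CPM.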

How the results depend on the processing

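Counts of SDE members stayed within 1.5 times those reported in all 12 alternative fits and at 1% FDR, with 69 to 79 falls and 10 to 13 rises. The median LFC of the members ranged from -0.53 to -0.30. It moved by more than the spread between replicates with library totals alone (-0.30), as did the log2 ratio of summed CPM, which was -0.54 for members and for copies with TMM and -0.35 for both with library totals. The median of members minus that of all genes tested was -0.68 as reported and -0.46 with filterByExpr, where fewer low genes were tested. Of the 77 falls, 67 had the same call and sign in every alternative, as had 8 of the 12 rises. Among those that reversed were NDUFAF7 with protein-coding transcripts only (-0.33) and NDUFAF5 with library totals (0.064) and with the offset for the trend with length (0.019), and the cause was not tested. SDHA was called higher with library totals (LFC 0.20) and with filterByExpr (LFC 0.09), and NDUFA10 lost its call in 4 alternatives.

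The 8 shared replicate numbers did not pair the samples, with correlations between -0.04 and 0.08. The replicate block in 16 samples gave 85 SDE members (75 lower, 10 higher), beside 86 in the same samples without it. Leaving out single replicates was not run with 10 per group. The fit without vehicle replicate 10 and nutlin replicate 6 and the length offset were chosen after seeing the data. Members below 1 CPM rest on few counts, which limits their LFC.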
